A study of Danio rerio with 6 samples.

Results

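The 81 genes of the cytosolic ribosomal proteins were followed through 6 RNA-seq libraries of sorted cardiomyocytes from the adult zebrafish heart. They were taken from the 25281 rows of the count tables as all rows whose symbol begins with rpl or rps followed by a number, or with rplp, leaving out the ribosomal protein S6 kinases (rps6k) and the rps19bp genes. Of the 81, 48 have symbols of the large subunit and 33 of the small subunit, and all 81 passed the expression filter and were tested. The smallest count of any of them in any library was 63. Their identifiers all matched the gene name table, which gives another name for 1 of them: the row called rpl37_1 (ENSDARG00000076360) is listed there as COA1, an assembly factor of a mitochondrial respiratory complex. It was kept because the symbol decides membership.

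All fish, aged 4 to 8 months, carried 3 transgenes, namely Tg(myl7:GAL4db-TCFΔC-2A-mCherry), together with the reporter Tg(UAS:EGFP) and the nuclear marker Tg(myl7:NLS-mCherry). The myl7 promoter, active in cardiomyocytes, drives a GAL4-TCF fusion, so that EGFP marks cells in which β-catenin activates transcription. By their labels the 3 GFP-positive libraries are β-catenin ON and the other 3, GFP-negative, are β-catenin OFF. All came from the resected atrioventricular canal region. For GFP-negative libraries the label of the sorted fraction reads mCherry-negative and EGFP-positive, against their titles, so their sort gate cannot be taken as known; groups follow the titles. Whether replicates came from separate fish or separate sorts is not stated, so each p-value reflects the spread among these libraries alone, and that spread may be technical.

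A ribosome is built from a small subunit, which reads the mRNA, and a large subunit, which joins amino acids. Each subunit holds ribosomal RNA and a set of proteins present mostly in single copies, so the proteins are needed in fixed proportions. In vertebrates the mRNAs of these proteins begin with a run of pyrimidines, the terminal oligopyrimidine or TOP motif, through which the kinase mTOR controls their translation together. The heart makes little new ribosome in the resting adult and more during growth, and Wnt/β-catenin signalling is known in other tissues to act on ribosome production through the transcription factor Myc.

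The libraries held 14783352 to 19750914 counts. Mitochondrially encoded transcripts made up 11.9% to 15.7% of a GFP-negative library and 35.6% to 44.9% of a GFP-positive one. Levels below are counts per 1e6 counts scaled by TMM (trimmed mean of M values) factors, written CPM, and 3 values for a group are always those of replicates 1, 2 and 3 in that order. The 7 cardiomyocyte markers summed to 67670 to 90420 CPM without GFP and to 39790 to 48580 CPM with it. Summed levels ran from 72.8 to 142.5 against 253.2 to 473.6 CPM for 7 endocardial markers, from 75.9 to 184.9 against 337.5 to 561.4 CPM for 5 fibroblast markers, and from 130.2 to 186.0 against 576.4 to 994.0 CPM for 5 epicardial markers. The 4 erythrocyte markers found ran from 501.4 to 600.8 against 1566 to 2413 CPM. The 5 macrophage markers overlapped, at 72.6 to 232.8 and 65.9 to 251.8 CPM. At an adjusted p under 0.05 edgeR called 4 of the 7 cardiomyocyte markers lower and 0 higher. Called higher were 1 of 7 endocardial, 2 of 5 fibroblast, 3 of 5 epicardial and 3 of 4 erythrocyte markers, with 0 called lower. Of the 4 macrophage markers tested, 0 were called. Over all tested genes 2.13% were called lower and 2.08% higher. Of these markers, wt1b (epicardium) and mfap4 (macrophage) were at 0 in at least 1 GFP-positive library. In the ribosomal protein genes GFP-negative replicate 1 stood apart from the other libraries, as described below, and where a named gene's fold change turns sign without it, that value is given. The part that these cells and the mitochondrial share have in the results below was not tested.

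The first question was how much of each library the ribosomal protein genes took, and the answer depended on the denominator. Of all counts, they took 1.86%, 1.71% and 1.74% in GFP-negative libraries, against 1.35%, 1.64% and 1.48% in GFP-positive ones. On this scale every GFP-positive library lay below every GFP-negative one. Of the counts that are not mitochondrially encoded, they took 2.18%, 2.03% and 1.97% in GFP-negative libraries, against 2.44%, 2.76% and 2.29% in GFP-positive ones. On this scale every GFP-positive library lay above every GFP-negative one.

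As group means, the share of all counts was 1.77 ± 0.0793% in GFP-negative and 1.49 ± 0.149% in GFP-positive libraries (SD, n = 3 each), and the share of non-mitochondrial counts 2.06 ± 0.109% and 2.50 ± 0.237% (SD, n = 3 each). By two-sided exact permutation both differences gave p = 0.1, below which a design of 3 against 3 cannot go. The mitochondrial share, 14.1 ± 2.00% against 40.3 ± 4.65%, separates the same libraries. Leaving out the 10 most abundant other non-mitochondrial genes narrowed the second difference: the shares were then 2.99%, 2.63% and 2.57% against 2.99%, 3.29% and 2.75%, and the groups overlapped (exact permutation p = 0.2). On the TMM scale the summed level averaged 16900 ± 2799 CPM among GFP-negative and 15760 ± 995 CPM among GFP-positive libraries (SD, n = 3 each; exact permutation p = 0.7). Without GFP-negative replicate 1 the difference in the non-mitochondrial share was 0.493 percentage points. In sorted bulk RNA, fewer cells of a type and less RNA per cell cannot be told apart.

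**Figure D1:**
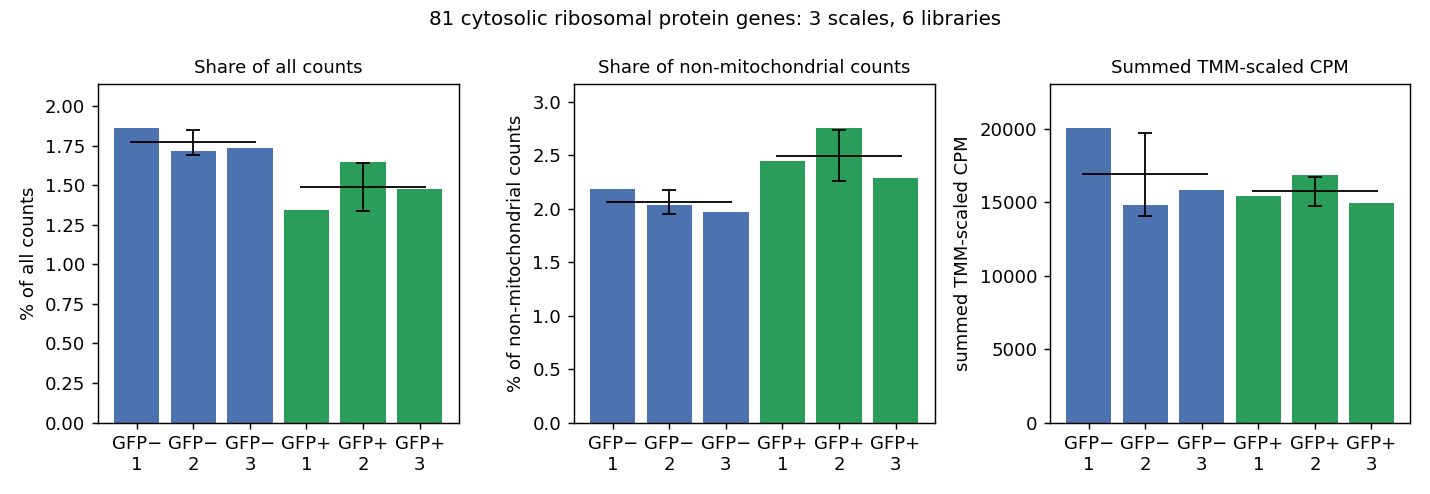
Bars give, for each library, the counts of the 81 cytosolic ribosomal protein genes as a percentage of all counts (left), as a percentage of non-mitochondrial counts (middle) and as summed TMM-scaled CPM (right); black lines and error bars are group means ± SD over 3 libraries. The GFP-positive mean is lower on the left (1.49% against 1.77%), higher in the middle (2.50% against 2.06%), and the groups overlap on the right.

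None of the 81 genes passed the test between the groups. edgeR's quasi-likelihood test called 0 higher and 0 lower at an adjusted p under 0.05, where 4.21% of the 13490 tested genes were called (2.08% higher and 2.13% lower), and 1 of the 81 had an unadjusted p under 0.05, against 18.9% of the tested genes. DESeq2 also called 0 of the 81, with 1 at an unadjusted p under 0.05, where it called 12.6% of all genes, or 22.4% unadjusted. limma-voom called 0, with 0 unadjusted, where it called 3.94% of all genes, or 19.6% unadjusted. The smallest edgeR adjusted p among the 81 was 0.248. Groups that did not overlap were seen for 9 of the 81 genes, 2 higher and 7 lower in GFP-positive libraries, a share of 11.1%, against 29.6% of all tested genes (12.1% higher and 17.6% lower).

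The fold changes were small and closely spaced. Their median was -0.10 on the log2 scale, GFP-positive over GFP-negative, beside 0.01 for all tested genes, and they ran from -1.02 to 0.27. Their quartiles were -0.21 and 0.00, against -0.63 and 0.65 for all tested genes. The fold changes of 63 of the 81 were within 0.25 of 0 on the log2 scale. The sign of the median was not stable: 60 of the 81 fold changes were negative with TMM factors, 78 without a composition factor (median -0.25), 28 with cyclic loess offsets (median 0.08) and 27 without GFP-negative replicate 1 (median 0.06). The median of all genes moved with these scalings too, to -0.16 without a composition factor and 0.17 with loess offsets, and the ribosomal median was 0.11 below it with TMM factors and 0.09 below it in both of these (differences of -0.113, -0.0935 and -0.0885). That difference turned positive without GFP-negative replicate 1 (0.00479), with the replicate block (0.197) and with limma-voom (0.272).

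The intervals give the size of change that the spread among these libraries allows under TMM scaling, and do not cover the choice of scaling. The 95% interval of the log2 fold change lay between -1 and 1, that is within a 2-fold change either way, for 73 of the 81 genes, against 11.1% of all tested genes. It lay within a 1.5-fold change either way for 38 of the 81, against 1.65% of all tested genes. Precision rises with the count, and 60 of the 81 had a mean of at least 100 CPM, of which 58 had an interval within a 2-fold change, beside 45.1% of the 974 tested genes at that level. Within a 1.5-fold change it was 31 of the 60, beside 13.7% of the 974. For genes whose interval reached past a 2-fold change, a change of that size was not excluded at this depth and number of libraries.

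**Figure D2:**
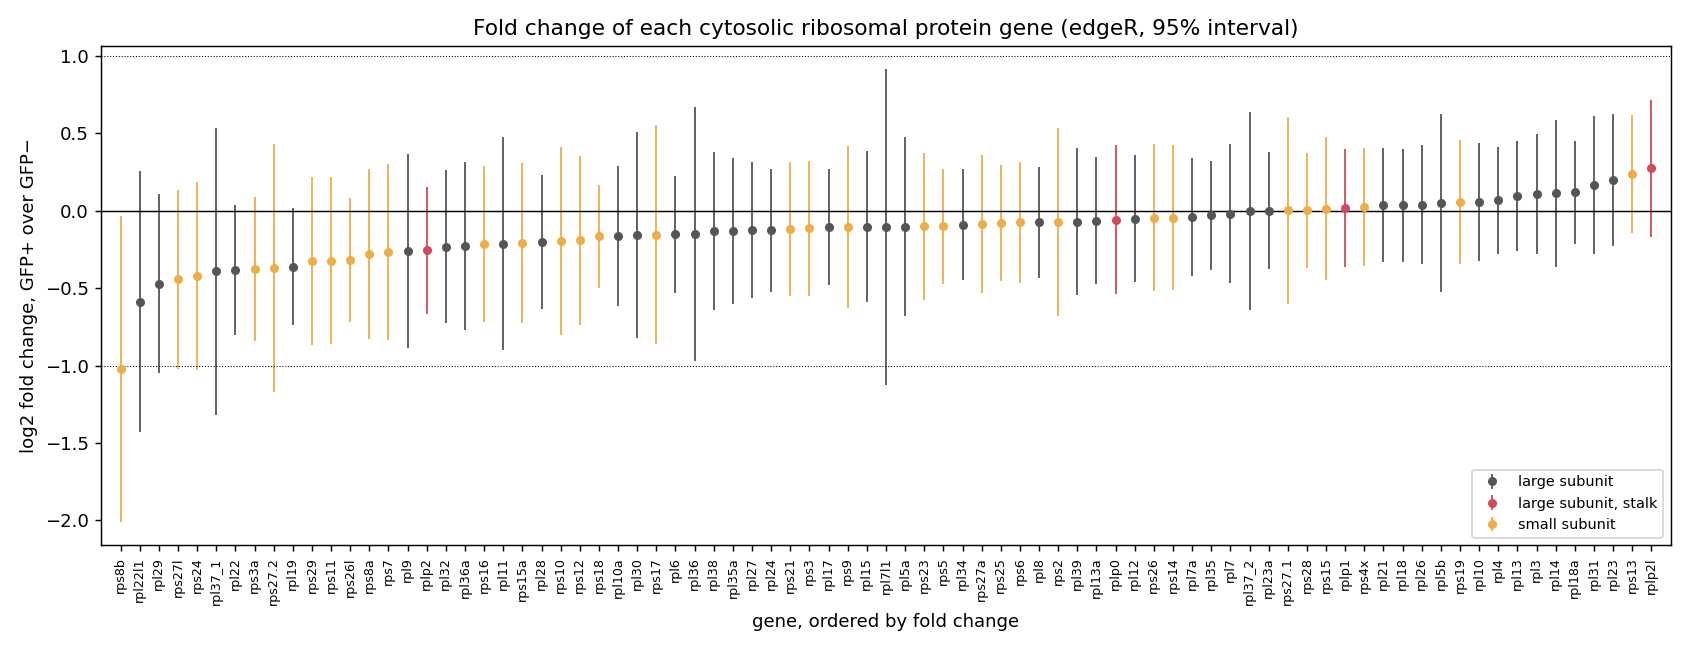
Log2 fold change of each of the 81 genes, GFP-positive over GFP-negative, with its edgeR 95% interval, in order of size and coloured by subunit; dotted lines mark a 2-fold change either way. The values run from -1.02 (rps8b) to 0.27 (rplp2l), and the interval of 1 gene, rps8b, does not include 0; the signs are those of TMM scaling, and the median turns positive with loess offsets or without GFP-negative replicate 1.

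The genes also kept close to one another from library to library. For a pair of libraries, the SD over genes of the log2 CPM difference measures how far genes move apart, whatever their common shift. Over the 81 genes it was 0.163 to 0.276 for the 3 pairs within the GFP-negative group, 0.230 to 0.357 for the 3 pairs within the GFP-positive group, and 0.251 to 0.386 for the 9 pairs between groups. Over all tested genes the same SD was 0.559 to 0.735, 1.96 to 2.46 and 1.57 to 2.31. For ribosomal protein genes the range between groups overlapped both ranges within a group. For all genes the range between groups lay above the whole range within the GFP-negative group. It overlapped the range within the GFP-positive group, and its lower end was below that range.

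Low counts scatter more, so tested genes averaging 100 CPM or more are the closer comparison. At that level the SD for pairs between groups was 0.175 to 0.366 over the 60 ribosomal protein genes and 0.875 to 1.12 over all 974 tested genes. Within the GFP-positive group it was 0.174 to 0.289 and 0.494 to 0.534. Other multi-subunit complexes stand beside them as values: for pairs between groups the SD was 0.406 to 0.662 over 74 mitochondrial ribosomal protein genes and 0.438 to 1.11 over 51 proteasome subunit genes, at median levels of 46.0 and 53.2 CPM, not scaled by length, against 156.4 CPM for the 81. These genes had median log2 fold changes of -0.84 and 0.05, with 11 of 74 and 0 of 51 called lower by edgeR and 0 called higher (51 and 3 at an unadjusted p under 0.05), beside 2.13% of all tested genes called lower and 18.9% at an unadjusted p under 0.05. Within the GFP-negative group the SD was 0.128 to 0.259 over the mitochondrial ribosomal and 0.226 to 0.426 over the proteasome genes. The 81 had 0.163 to 0.276 there, so the mitochondrial ribosomal genes scattered no more than they did. Within the GFP-positive group it was 0.511 to 0.682 and 0.717 to 1.18, beside 0.230 to 0.357 for the 81. The difference between the complexes was not tested.

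**Figure D3:**
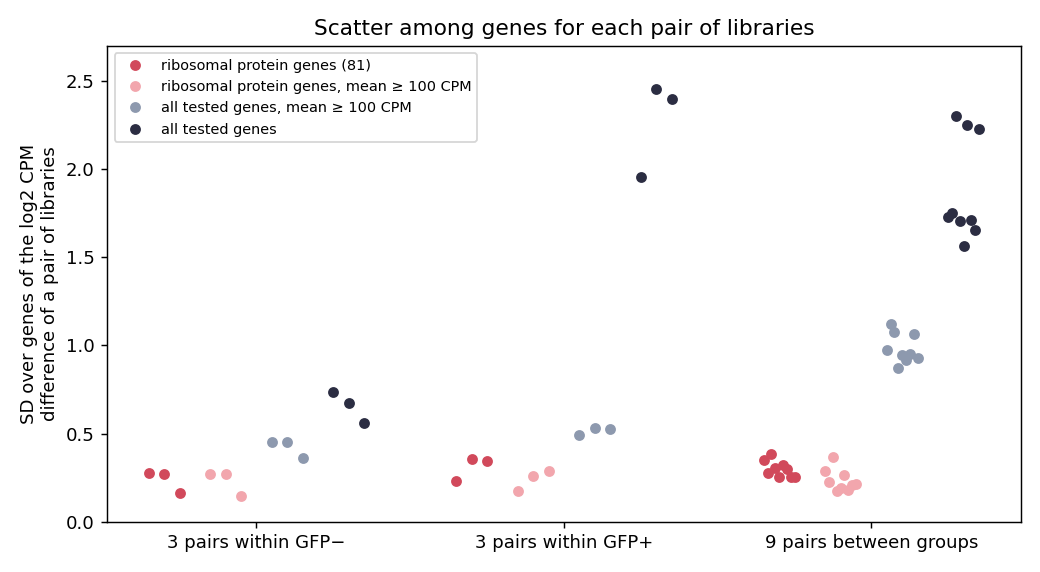
Each point is 1 pair of libraries, and its height is the SD over genes of the log2 CPM difference of that pair, for the 81 ribosomal protein genes, the 60 of them with a mean of at least 100 CPM, the 974 tested genes at that level, and all 13490 tested genes. The 81 ribosomal protein genes lie between 0.163 and 0.386 and the 60 between 0.144 and 0.366, while all tested genes reach 2.46 within the GFP-positive group.

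With TMM scaling, 1 library stood apart from the rest across the 81 genes. GFP-negative replicate 1 held the highest level of the 6 libraries for 57 of the 81 genes, and 75 of the 81 were higher there than the mean of GFP-negative replicates 2 and 3, by a median of 0.35 on the log2 scale. Among all tested genes 45.7% were higher in that library than in the mean of the same replicates, with a median of -0.05, and among the 974 averaging 100 CPM or more the share was 67.1% (median 0.16). The lowest level of the 6 libraries fell in GFP-positive replicate 3 for 28 genes, in GFP-negative replicate 2 for 24 and in GFP-positive replicate 1 for 18. The shift of GFP-negative replicate 1, 0.35, was larger than the median difference between the groups, -0.10, which includes that library. It was singled out after its values were seen, and GFP-negative replicates 2 and 3 differed by a median of 0.046. These levels carry the TMM factors, which were 0.929, 1.161 and 1.099 for GFP-negative replicates 1, 2 and 3. A smaller factor raises every gene of its library. Without the factors, the 81 genes took 1.86% of all counts in replicate 1, against 1.71% and 1.74% in replicates 2 and 3. The part of the scaling in the shift was not tested.

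The shift of GFP-negative replicate 1 was not the same for every gene. The genes in this paragraph were chosen after their values were seen. rpl36 stood at 477.7 CPM there and at 210.6 and 224.9 CPM in GFP-negative replicates 2 and 3, the widest gap of the 81 (1.13 on the log2 scale). rpl30, at 216.9 against 111.4 and 118.5 CPM, rose above its replicates by 0.92. At the other end rpl35, at 238.5, 229.4 and 243.9 CPM, and rps4x, at 309.0, 295.7 and 318.5 CPM, differed little among the 3. rpl31, at 46.2, 52.6 and 51.2 CPM, and rpl4, at 309.5, 318.7 and 373.3 CPM, were lowest in replicate 1.

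**Figure D4:**
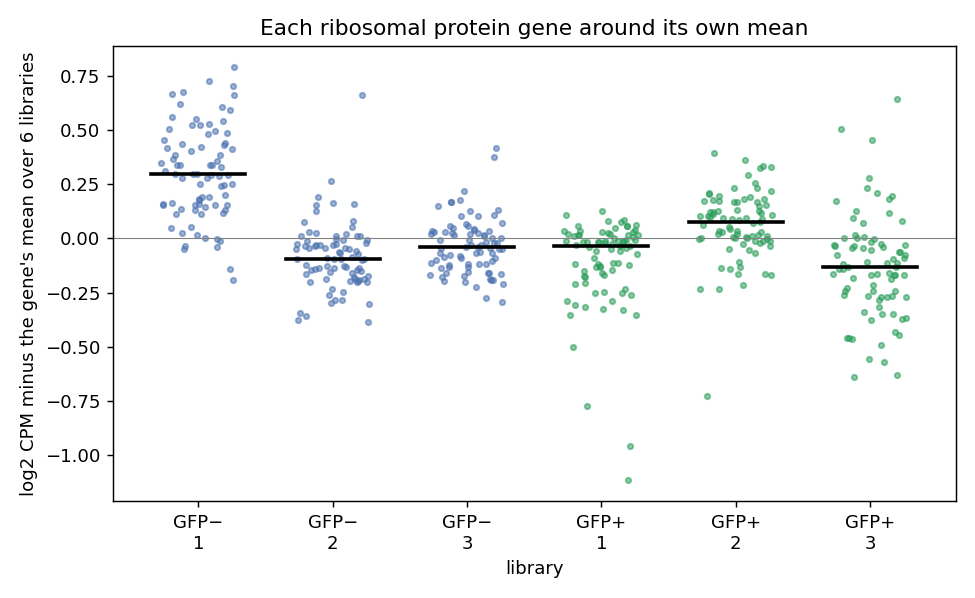
Each point is 1 of the 81 genes in 1 library, as log2 CPM minus that gene's mean over the 6 libraries; points are spread sideways to be seen and black bars are medians. With TMM scaling, GFP-negative replicate 1 has a median of 0.296, and the other 5 libraries have medians from -0.132 to 0.075.

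With TMM scaling, spread between replicates was no wider in the GFP-positive group for most of these genes. The SD of log2 CPM over 3 libraries had a median of 0.225 in GFP-negative and 0.170 in GFP-positive libraries over the 81 genes, beside 0.282 and 0.910 over all tested genes. The SD was larger in the GFP-positive group for 33 of the 81 (40.7%) and for 85.7% of all tested genes, or 56.4% of those with a mean of at least 100 CPM. GFP-negative replicate 1 carries the first of these counts: without it the GFP-positive SD was larger for 63 of the 81. That count was not taken under another scaling. The 5 genes with a mean under 50 CPM (rpl22l1, rpl37_1, rpl7l1, rps27.2 and rps8b) had median SDs of 0.289 and 0.419, and the other 76 of 0.210 and 0.157.

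The stalk of the large subunit, made of rplp0 and pairs of rplp1 and rplp2 proteins, draws elongation factors to the ribosome. rplp0 (ENSDARG00000051783) stood at 813.6, 525.0 and 528.3 CPM in GFP-negative libraries, against 627.1, 615.9 and 549.9 CPM in GFP-positive ones. The GFP-positive libraries lay inside the GFP-negative range (log2 fold change -0.06 ± 0.21 SE, edgeR adjusted p = 0.948; 0.21 without GFP-negative replicate 1). rplp1 (ENSDARG00000021864) ran from 402.7 to 500.2 and from 399.0 to 503.7 CPM, nearly the same range (0.02 ± 0.16, adjusted p = 0.979).

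The stalk protein rplp2 has a pair of genes here. rplp2 (ENSDARG00000101406) stood at 298.8, 294.6 and 274.0 CPM in GFP-negative libraries, against 235.7, 287.8 and 202.4 CPM in GFP-positive ones, with overlapping groups (log2 fold change -0.26 ± 0.18 SE, edgeR adjusted p = 0.555). rplp2l (ENSDARG00000011201) stood at 62.8, 60.8 and 53.3 CPM in GFP-negative libraries, against 63.0, 77.2 and 73.3 CPM in GFP-positive ones. It had the largest positive fold change of the 81 and groups that just failed to touch, with an edgeR adjusted p of 0.565 (0.27 ± 0.19).

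Other large-subunit proteins showed the same pattern of small differences. Over the 48 large-subunit genes the median log2 fold change was -0.08, with a range from -0.59 to 0.27, and none had an unadjusted edgeR p under 0.05. rpl3 (ENSDARG00000003599), which reaches towards the centre where peptide bonds form, took 1009, 847.4 and 1044 CPM in GFP-negative libraries, against 914.2, 998.4 and 1208 CPM in GFP-positive ones (0.11 ± 0.17, adjusted p = 0.861). rpl19 (ENSDARG00000013307), which forms a bridge to the small subunit, stood at 1004, 737.1 and 819.1 CPM against 665.7, 694.2 and 632.8 CPM. Its groups did not overlap, GFP-positive being lower, but its adjusted p was 0.288 (-0.36 ± 0.16; 0.0659 to 0.892 over the alternatives).

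rpl5a, rpl5b and rpl11 bind 5S ribosomal RNA and enter the large subunit together. rpl11 (ENSDARG00000043509) stood at 197.4, 96.9 and 118.5 CPM in GFP-negative libraries, against 100.4, 143.2 and 112.6 CPM in GFP-positive ones. Its highest value was that of GFP-negative replicate 1, and the other 5 libraries overlapped (log2 fold change -0.21 ± 0.29 SE, edgeR adjusted p = 0.832; 0.17 without that library). rpl5a ran from 118.3 to 210.6 CPM and from 125.7 to 173.2 CPM, and rpl5b from 118.8 to 171.8 CPM and from 121.9 to 197.9 CPM (-0.10 ± 0.25 and 0.05 ± 0.25, adjusted p = 0.917 and 0.967). Without GFP-negative replicate 1 rpl5a was at 0.17. rpl10, which joins the large subunit late in its maturation, ran from 176.7 to 219.9 CPM and from 187.5 to 212.3 CPM (0.06 ± 0.16, adjusted p = 0.935).

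Further large-subunit genes with named values also missed the threshold. rpl29 stood at 123.0, 101.0 and 102.2 CPM in GFP-negative libraries, against 72.9, 104.2 and 58.3 CPM in GFP-positive ones, with GFP-positive replicate 2 inside the GFP-negative range (-0.47 ± 0.25, edgeR adjusted p = 0.387). rpl22, an RNA-binding protein, stood at 193.2, 165.3 and 151.3 CPM against 117.6, 149.6 and 123.0 CPM, lower without overlap by a narrow margin (-0.39 ± 0.18, adjusted p = 0.315). rpl32 ran from 516.3 to 835.0 CPM and from 491.0 to 621.1 CPM (-0.23 ± 0.21, adjusted p = 0.700; 0.02 without GFP-negative replicate 1). In the other direction, rpl23, whose protein is bound by the anti-association factor eIF6, had 0.20 ± 0.18, and rpl31, which sits near the exit of the peptide tunnel, 0.17 ± 0.19 (adjusted p = 0.705 and 0.782).

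Among the 33 small-subunit genes the median log2 fold change was -0.12, with a range from -1.02 to 0.24. They took 37.9%, 36.6% and 35.3% of the ribosomal protein counts in GFP-negative libraries, against 36.3%, 36.6% and 34.1% in GFP-positive ones. These shares overlapped (36.6 ± 1.27% against 35.7 ± 1.34%, SD over 3 libraries; exact permutation p = 0.4). The difference, -0.93 percentage points, was smaller than either SD, but it rested on single libraries: it was -1.57 without GFP-negative replicate 3, -0.302 without GFP-negative replicate 1 and -0.163 without GFP-positive replicate 3.

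rps6 (ENSDARG00000019778), the substrate of the S6 kinases, stood at 336.4, 250.5 and 263.6 CPM in GFP-negative libraries, against 275.0, 264.9 and 267.4 CPM in GFP-positive ones. The GFP-positive libraries lay close together and inside the GFP-negative range (log2 fold change -0.08 ± 0.17 SE, edgeR adjusted p = 0.911; 0.10 without GFP-negative replicate 1). rps2 (ENSDARG00000077291), at the channel where mRNA enters, stood at 1388, 770.0 and 825.0 CPM against 938.0, 1114 and 787.9 CPM (-0.07 ± 0.26, adjusted p = 0.951). GFP-negative replicate 1 was again the highest library, and without it the log2 fold change was 0.27. rps19, needed to mature the small-subunit RNA and known for its mutations in Diamond-Blackfan anaemia in people, ran from 116.9 to 144.5 CPM and from 124.2 to 147.3 CPM (0.05 ± 0.17, adjusted p = 0.942). rps27a, made as a fusion with ubiquitin, ran from 182.2 to 224.3 CPM and from 148.7 to 207.0 CPM (-0.08 ± 0.19, adjusted p = 0.912; 0.04 without GFP-negative replicate 1).

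At the ends of the small-subunit range stood rps13 and rps8b. rps13 (ENSDARG00000036298) was at 104.5, 93.4 and 94.3 CPM in GFP-negative libraries, against 104.8, 118.7 and 120.9 CPM in GFP-positive ones. Its groups were separated by a narrow gap, and the test was not passed (log2 fold change 0.24 ± 0.16 SE, edgeR adjusted p = 0.562). rps8b (ENSDARG00000057368) was at 13.5, 15.2 and 12.9 CPM against 4.89, 8.57 and 7.03 CPM. Its 95% interval, from -2.01 to -0.03, was the only one of the 81 without 0, with an adjusted p of 0.248 (edgeR; -1.02 ± 0.43; 0.124 to 0.629 over the alternatives). Its counts were 204, 304 and 279 in GFP-negative libraries, against 63, 133 and 108 in GFP-positive ones.

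Zebrafish carry duplicate or related genes for several ribosomal proteins, and 7 such families could be compared by the share each copy takes of its family's counts. This share does not depend on how libraries are scaled. It depends on how the authors' counting split reads between copies, which is not given in the sources used here, and the families were chosen by symbol after the values were seen. rplp2l took 17.4%, 17.1% and 16.3% of the rplp2 and rplp2l counts in GFP-negative libraries, against 21.1%, 21.1% and 26.6% in GFP-positive ones. This was the only one of 9 shares compared in which the groups did not overlap (16.9 ± 0.570% against 23.0 ± 3.16%, SD, n = 3 each). Its exact permutation p = 0.1 is the smallest possible and was 0.514 after Benjamini-Hochberg adjustment over the 9 shares. Leaving out any 1 library kept the difference between 4.21 and 6.95 percentage points.

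The other families overlapped between groups. rps8b took 3.84%, 6.77% and 5.24% of the rps8a and rps8b counts in GFP-negative libraries, against 2.12%, 3.39% and 3.93% in GFP-positive ones (exact permutation p = 0.2, 0.514 adjusted). rpl22l1, a paralog of rpl22, took 12.1%, 10.3% and 9.99% against 7.56%, 9.12% and 12.0%, and its level of 26.5, 18.9 and 16.8 CPM against 9.62, 15.0 and 16.7 CPM did not pass the test (-0.59 ± 0.36 SE, edgeR adjusted p = 0.491). rpl7l1, related to rpl7, took 6.18%, 7.32% and 8.29% against 3.12%, 6.77% and 10.5%, so that its lowest and highest shares were both in the GFP-positive group (log2 fold change of its level -0.10 ± 0.44 SE, edgeR adjusted p = 0.958). rpl5b held 44.9% to 50.1% and 45.6% to 53.3% of the rpl5 counts, an almost even split with rpl5a in every library.

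The rps26 and rps27 families had wider ranges in the GFP-positive group. rps26l took 56.2% to 60.3% of the rps26 and rps26l counts in GFP-negative and 49.6% to 59.2% in GFP-positive libraries. Its level was 92.5 ± 8.16 CPM against 74.2 ± 5.63 CPM (SD, n = 3), without overlap (-0.32 ± 0.17 SE, edgeR adjusted p = 0.409). rps27l, whose human counterpart is known as a target of p53, took 48.0% to 54.7% and 39.4% to 55.4% of the counts of rps27.1, rps27.2 and rps27l. It stood at 322.3, 175.2 and 207.7 CPM in GFP-negative libraries, against 154.7, 176.1 and 187.7 CPM in GFP-positive ones (-0.44 ± 0.25, adjusted p = 0.427). Without GFP-negative replicate 1 its log2 fold change was -0.11.

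**Figure D5:**
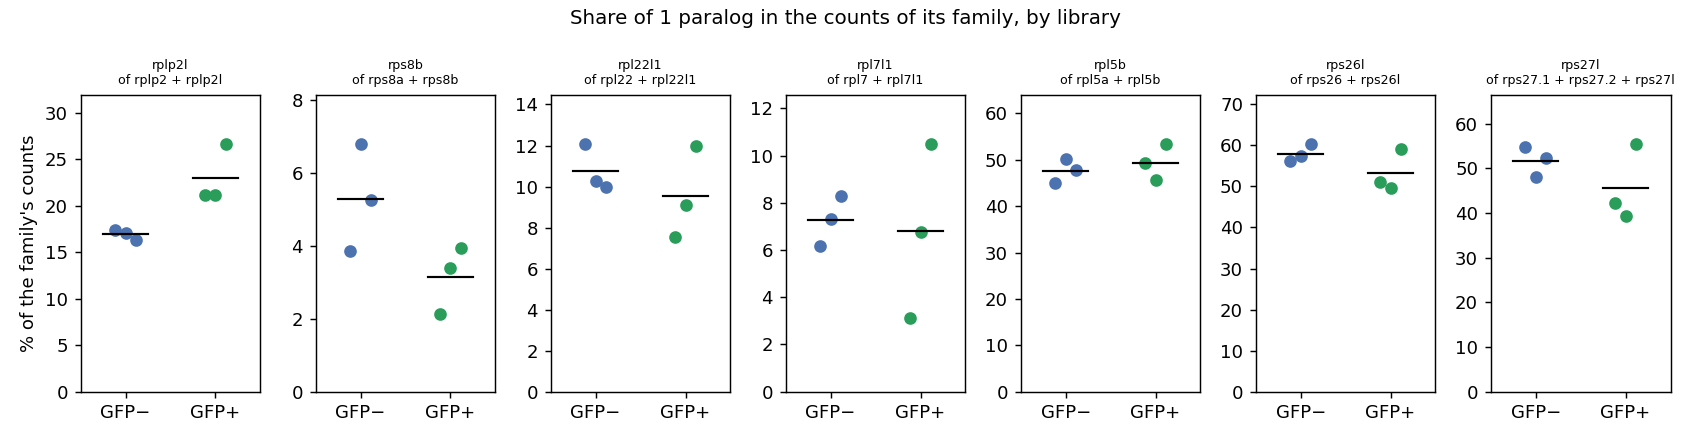
Share of 1 paralog in the summed counts of its family, in percent, for 7 families; points are libraries and black lines are group means over 3 libraries. rplp2l takes 16.3% to 17.4% in GFP-negative and 21.1% to 26.6% in GFP-positive libraries, and the other 6 shares overlap between groups.

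Further genes of translation were described from lists written from textbook knowledge. Of the ribosomal proteins whose symbols fall outside the rule, rpsa and rack1 of the small subunit had log2 fold changes of 0.06 ± 0.20 and 0.11 ± 0.17 (SE; edgeR adjusted p = 0.949 and 0.855), both inside the range of the 81. rpsa stood at 869.8, 594.3 and 662.8 CPM in GFP-negative libraries, against 783.5, 823.0 and 604.5 CPM in GFP-positive ones, with GFP-negative replicate 1 again the highest.

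The factors that work with the ribosome were not called by edgeR, and some were by other settings. Of 12 tested elongation factor genes 0 passed (3 at an unadjusted p under 0.05; median -0.17), of 37 initiation factor genes 0 passed (5 unadjusted; median -0.12), and of 14 other TOP mRNA genes, some of which are also in those lists, 0 passed (5 unadjusted; median -0.26). Over all tested genes edgeR called 4.21%, and 18.9% had an unadjusted p under 0.05. DESeq2 called 2 of the elongation factor, 0 of the initiation factor and 2 of the TOP genes, beside 12.6% of all genes. limma-voom called 0 of each, beside 3.94% of all genes. Over all 16 alternatives the counts were 0 to 2, 0 to 1 and 0 to 2, beside 0.311% to 14.0% of all genes. Nearest to the threshold among the elongation factors came eef2l2, related to the translocation factor eEF2, at 379.3 ± 39.9 and 235.8 ± 41.9 CPM (SD, n = 3; -0.69 ± 0.18 SE, edgeR adjusted p = 0.0809, and past the threshold in 4 of 16 alternatives). eef1da, a subunit of the nucleotide exchange factor for eEF1A, had -0.86 ± 0.26 (adjusted p = 0.121, and past the threshold in 1 of 16 alternatives, DESeq2), and eif3g and eif3k, subunits of the initiation factor eIF3, had -0.58 ± 0.17 and -0.84 ± 0.27 (adjusted p = 0.109 and 0.135, the first past the threshold in 1 of 16 alternatives and the second in 0). npm1a, the nucleolar chaperone nucleophosmin, stood at 137.1 ± 18.9 and 84.0 ± 8.25 CPM (-0.71 ± 0.18, adjusted p = 0.0741, and past the threshold in 3 of 16 alternatives). vim, the mesenchymal intermediate filament gene vimentin, whose mRNA also has a TOP motif in mammals, stood at 6.21 ± 1.05 and 23.1 ± 12.6 CPM (1.89 ± 0.48, adjusted p = 0.0731, and past the threshold in 3 of 16 alternatives), beside the higher fibroblast and epicardial marker sums of the same libraries.

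A pair of lists upstream of the ribosome each held 1 called gene. Of 57 tested ribosome biogenesis genes 1 fell, 0 rose and 56 did not pass (median -0.32), a called share no larger than the 2.13% of all tested genes that were called lower. The gene was gtpbp4 (ENSDARG00000018961), a nucleolar GTPase of large-subunit assembly, at 133.9, 100.7 and 125.9 CPM in GFP-negative libraries, against 64.9, 62.7 and 62.7 CPM in GFP-positive ones (-0.92 ± 0.18, edgeR adjusted p = 0.0380). Of 25 tested mTOR and translation regulator genes 1 fell, 0 rose and 24 did not pass by edgeR (median 0.07), beside the same 2.13%. The count called was 3 with DESeq2, 0 with limma-voom and 4 without GFP-positive replicate 3 for this list, and 3, 0 and 2 for the biogenesis list. Of all tested genes these settings called 12.6%, 3.94% and 7.11%, in that order. The gene called by edgeR was tsc1a (ENSDARG00000026048), an inhibitor of mTOR complex 1, at 80.0, 85.0 and 84.6 CPM against 38.1, 45.9 and 33.3 CPM (-1.09 ± 0.20, adjusted p = 0.0321). Leaving out any 1 library except GFP-positive replicate 3 ended both calls: without GFP-negative replicates 1, 2 and 3 the adjusted p was 0.225, 0.0694 and 0.186 for gtpbp4 and 0.158, 0.119 and 0.164 for tsc1a, and without GFP-positive replicates 1 and 2 it was 0.0831 and 0.0796 for gtpbp4 and 0.0663 and 0.0632 for tsc1a. The fits without 1 of these libraries called 0.311% to 1.57% of all tested genes, beside 4.21% with all 6 libraries. limma-voom also ended both calls (adjusted p = 0.151 and 0.0709), and RLE factors ended that of gtpbp4 (adjusted p = 0.0507). Over the 16 alternatives the log2 fold change ran from -1.08 to -0.805 for gtpbp4 and from -1.26 to -0.995 for tsc1a. The adjusted p ranged from 0.000802 to 0.225 for gtpbp4 and from 9.26e-05 to 0.164 for tsc1a over the 16 alternatives.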

How the data were processed

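For every library the authors deposited total counts of reads by gene, which the values show to be whole numbers without scaling. The labels' protocols name SMART-Seq v4 for cDNA and NEBNext Ultra II Directional for library making, and mention no molecular identifiers, so amplification copies may be counted. Neither the aligner and counting rules nor the genome build is given in the sources used here. Coordinates are therefore not printed, and genes with near-identical copies or overlapping genes are uncertain to the degree that reads were shared.

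Counts were fitted over all genes with edgeR 4.0.16 (R 4.3.3): filterByExpr, TMM factors, group as the only term, robust quasi-likelihood F test, and Benjamini-Hochberg adjustment over 13490 genes at 0.05. Standard errors were the fold change divided by the root of F, and 95% intervals from the t distribution with the fit's degrees of freedom. Scatter used log2 CPM with a prior count of 2. CPM is not divided by transcript length. Fold changes compare levels within a gene, while sums, rankings and level classes over genes are not scaled by length. For shares the test was an exact permutation, two-sided. Alternatives were RLE, upper-quartile and no factors, cyclic loess offsets, fits without mitochondrially encoded rows, other filters, DESeq2 1.42.0, limma-voom (limma 3.58.1), a replicate block, and leaving out each library. The fit was tested on simulated counts.

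Pairs of libraries within a group differed with a chi-square per degree of freedom of 29.0 to 93.6, so no library's counts appeared under 2 titles of the same group. Between groups this was not computed, and the SD over all tested genes of the log2 CPM difference of a pair was 1.57 to 2.31. The members, lists and comparisons were chosen with earlier results of these data known. Genes named are the 6 members with the most counts, the 4 largest fold changes in each direction, fixed members and symbol-marked paralogs; those of the further lists are called genes or the 2 nearest to the threshold. Of 158 list entries, 151 matched a row. 1 gene of the further lists is not reported here.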

Additional observations from a re-analysis of the deposited data

How the results depend on the processing

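No member was called higher or lower by any of the 16 alternatives, which called 0.311% to 14.0% of all genes. The difference in the share of non-mitochondrial counts (0.433 percentage points higher in GFP-positive libraries) turned to -0.283 when taken over all counts, mitochondrial ones included. The denominator's construction gives that turn, as mitochondrial counts are in one and not in the other. It ranged from 0.303 to 0.536 with 1 library left out. The median log2 fold change of the members moved from -0.104 to 0.0831 with cyclic loess offsets and ranged from -0.182 to 0.0574 with 1 library left out, positive only without GFP-negative replicate 1. Among members of at least 100 CPM the median scatter was 0.211 instead of 0.301 between groups and 0.259 instead of 0.346 within the GFP-positive group. With 1 library left out it ranged from 0.264 to 0.312 between groups, from 0.163 to 0.276 within GFP-negative and from 0.230 to 0.357 within GFP-positive libraries. The count of members with the wider GFP-positive spread ranged from 24 to 63, and the small-subunit difference from -1.57 to -0.163 percentage points. Over all genes, 568 were called, against 44 to 1018 with 1 library left out, 1667 with DESeq2 and 843 with the filter of 10 CPM. The cause of these moves was not tested. Same-numbered libraries deviated together with r = 0.131, 0.187 and 0.0922 across genes. Over all tested genes every library correlated best with its own number, a hint from the data only, since one value is under 0.1. Over the 81 members this did not hold: the same-numbered values were 0.0693, -0.0237 and 0.439. GFP-negative replicate 1 had r = 0.298 with GFP-positive replicate 2 over these members. With the replicate block the members' median was -0.095, 0 members were called, and 282 genes rose and 290 fell. The smallest member count was 63, and the SE of the log2 fold change ranged from 0.143 to 0.437 over members.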
